A study of Mus musculus with 4 samples.

Results

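The genes described here carry fatty acids into endothelial cells and put them to use: Cd36, Fabp3, Fabp4, Fabp5, Pparg, Scarb1, Vldlr, Angptl4, Acsl1 and Cpt1a. They are 10 of the 17915 genes in the deposited table and were taken by symbol; all 10 had a row. They were proposed with earlier results of these data known, and Fabp4 and Cd36 were named in that proposal for lying in opposite directions, so that opposition is a description and not independent evidence. The libraries come from pulmonary endothelial cells of mice. Every mouse carried Cdh5-CreER, a tamoxifen-inducible Cre driven in endothelium, together with aSMA-LSL-Dre, a Dre recombinase placed at the alpha smooth muscle actin gene behind a stop that Cre removes, and the NR1 reporter. Both groups had received tamoxifen 5 times and were taken 6 weeks after transverse aortic constriction (TAC), a narrowing of the aorta that loads the left heart. The tdTomato+ group (n = 2) holds endothelial cells in which that actin gene had been active at some time after Cre removed the stop. The ZsGreen+ group (n = 2) holds those without such a record. No group without TAC was analysed here, and the ages of the mice were not given in the labels. The labels call the libraries biological replicates but do not tie them to mice, so a p-value here measures spread among 4 libraries, which may be technical.

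Long-chain fatty acids reach an endothelial cell bound to albumin or are freed at the capillary wall from triglyceride-rich lipoproteins by lipoprotein lipase, which Angptl4 inhibits. CD36 takes them up at the membrane, SR-B1 (Scarb1) and the VLDL receptor bind lipoproteins, FABP proteins carry fatty acids through the cytosol, ACSL1 ties them to coenzyme A and CPT1A lets them into mitochondria for oxidation. PPAR-gamma (Pparg) is a nuclear receptor that senses fatty acids; Fabp4, Cd36 and Angptl4 are textbook targets of it. In lung, FABP4 and CD36 are known from microvascular endothelium and also from alveolar macrophages.

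The libraries held 17050673 to 18574737 counts. CPM below are counts scaled to library size with TMM factors, for comparing one gene between libraries; TPM are the authors' values per transcript length, for comparing genes. The endothelial markers Pecam1 and Cdh5 stood between 1112 and 2422 CPM in every library. Lyz2, a macrophage marker, was also abundant, at 3953 and 1969 CPM in the tdTomato+ libraries, with 2269 and 469 CPM in the ZsGreen+ pair. Acta2, the recorded gene, measured 304 and 528 CPM in the tdTomato+ libraries, with 87.6 and 82.9 CPM in the ZsGreen+ pair (edgeR adjusted p = 0.0432).

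The promoter stretches below are shown because the members differed in behaviour although several are known PPAR targets: Cd36 stood lower in tdTomato+ cells, Cpt1a differed by replicate number and not by group, and Olr1 and Ucp3 are the PPAR targets beside the members with the smallest p. PPAR-gamma binds, with its partner RXR, a direct repeat of the hexamer AGGTCA with 1 base between the copies. Capitals mark AGGTCA or its reverse complement TGACCT. Each stretch is the strand of the gene up to 250 bases before a RefSeq transcription start (GRCm38.p6), cut where a GENCODE M21 exon begins. The starts used for Cd36 and Cpt1a lie inside the RefSeq spans of these genes and are not their outermost starts. Fabp4, Fabp5, Scarb1 and Angptl4 had no promoter entry. No stretch is therefore shown for Fabp4, the member with the largest log2 fold change. Cd36 is chr5:17835897-17836146 on the minus strand, Cpt1a chr19:3323051-3323284 on the plus strand, Olr1 chr6:129507166-129507415 on the minus strand and Ucp3 chr7:100472741-100472989 on the plus strand.
Cd36: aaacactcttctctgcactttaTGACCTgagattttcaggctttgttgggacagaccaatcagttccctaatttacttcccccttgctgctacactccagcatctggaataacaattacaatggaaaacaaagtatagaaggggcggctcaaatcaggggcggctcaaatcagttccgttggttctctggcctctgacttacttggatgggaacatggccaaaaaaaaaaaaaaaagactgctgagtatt
Cpt1a: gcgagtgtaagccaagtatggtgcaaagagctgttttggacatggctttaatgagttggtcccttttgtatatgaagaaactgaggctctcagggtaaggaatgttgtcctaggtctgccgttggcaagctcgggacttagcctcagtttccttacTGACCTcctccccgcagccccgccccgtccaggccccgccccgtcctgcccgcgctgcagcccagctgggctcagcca
Olr1: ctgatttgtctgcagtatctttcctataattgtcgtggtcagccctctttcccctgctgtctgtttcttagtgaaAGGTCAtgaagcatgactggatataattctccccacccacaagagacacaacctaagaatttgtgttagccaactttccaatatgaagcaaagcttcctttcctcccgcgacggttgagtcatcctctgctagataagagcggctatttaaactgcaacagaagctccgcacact
Ucp3: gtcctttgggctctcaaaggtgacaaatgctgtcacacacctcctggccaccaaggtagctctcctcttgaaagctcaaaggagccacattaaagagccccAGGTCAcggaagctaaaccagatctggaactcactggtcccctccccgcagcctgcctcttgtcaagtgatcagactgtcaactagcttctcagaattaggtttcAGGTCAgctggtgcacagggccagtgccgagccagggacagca
The hexamer lies 228 bases before the start in Cd36, 94 in Cpt1a, 175 in Olr1, and 149 and 44 in Ucp3. Of all 32851 windows of 250 bases in the table, 14% hold the hexamer on either strand, and 1.36% hold at least 2 copies. The spaced repeat itself was found in 11 of all windows (0.0335%) and in none of the 10 windows of the 6 members with an entry, of which 4 hold the hexamer: those of Cd36 and Cpt1a and a pair at starts of Pparg. A match is a description of the letters in this window and not a binding site.

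Of the receptors at the membrane, Cd36 and Scarb1 stood lower in both tdTomato+ libraries than in both ZsGreen+ libraries. Cd36 (NCBI Gene 12491; chromosome 5, 17781690 to 17888959, GRCm38) measured 567 and 638 CPM in the tdTomato+ libraries, with 937 and 1475 CPM in the ZsGreen+ pair. The groups did not overlap, and ZsGreen+ replicate 2 was the highest by far. The mean was 602 ± 50.4 CPM against 1206 ± 380 CPM (SD, n = 2 each), and the log2 fold change, tdTomato+ over ZsGreen+, was -1.00 (SE 0.26, edgeR adjusted p = 0.267). Without ZsGreen+ replicate 2 it was -0.64. With bulk RNA, fewer cells of a type that expresses Cd36 and less Cd36 RNA per cell cannot be told apart. Scarb1 (chromosome 5, 125277087 to 125341094), the HDL receptor that also moves LDL across endothelium, measured 778 and 516 CPM in the tdTomato+ libraries, with 1467 and 823 CPM in the ZsGreen+ pair. The gap between the groups was small here, 778 against 823 CPM at its edges, and replicate 1 exceeded replicate 2 within each group. Its log2 fold change of -0.82 (SE 0.33) had an edgeR adjusted p of 0.54. The value was -0.34 without ZsGreen+ replicate 1, -0.53 without tdTomato+ replicate 2 and -1.18 without ZsGreen+ replicate 2. Vldlr (chromosome 19, 27216480 to 27254231), which docks lipoproteins on vessel walls, was low, measuring 10.4 and 5.78 CPM in the tdTomato+ libraries, with 5.95 and 4.55 CPM in the ZsGreen+ pair. The groups overlapped, and its log2 fold change of 0.62 (SE 0.41, edgeR adjusted p = 0.786) rested mostly on tdTomato+ replicate 1, without which it was 0.14 (edgeR adjusted p = 1). Without tdTomato+ replicate 2 it was 1.01.

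Among the cytosolic carriers Fabp4 had the largest log2 fold change, while Fabp5 stood at nearly one level in all libraries. Fabp4 (NCBI Gene 11770) measured 39.1 and 74.1 CPM in the tdTomato+ libraries, with 13.2 and 8.93 CPM in the ZsGreen+ pair, from 711, 1411, 209 and 163 counts. Both tdTomato+ libraries were above both others, and tdTomato+ replicate 2 was the highest. The mean was 56.6 ± 24.7 CPM against 11.1 ± 3.04 CPM (SD, n = 2 each), with a log2 fold change of 2.35 (5.12-fold, SE 0.36) and an edgeR adjusted p of 0.0819, which misses the 0.05 limit. Fabp5, the epidermal-type carrier, measured 129 and 118 CPM in the tdTomato+ libraries, with 138 and 109.8 CPM in the ZsGreen+ pair. The groups overlapped fully, and the log2 fold change of -0.01 (SE 0.19) had an edgeR adjusted p of 0.997. Fabp3, the heart and muscle carrier, had 0 and 13.67 estimated counts in tdTomato+ cells and 5.45 and 8.94 in ZsGreen+ cells. It did not pass the filter on low counts, was not tested, and no fold is given. The library with no count allows up to 0.165 CPM, which is 3 counts.

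The makeup of the carriers was also read on the per-length scale. Fabp4 made up 31.9% and 49.1% of the summed TPM of Fabp4 and Fabp5 in the tdTomato+ libraries, and 12.8% and 11.1% in the ZsGreen+ libraries. This share does not depend on how libraries are scaled to each other. The sum of both carriers was 403 and 467 TPM in tdTomato+ cells against 269 and 249.9 TPM in ZsGreen+ cells. Cd36 TPM was 2.72 and 1.64 times Fabp4 TPM in tdTomato+ cells and 13.7 and 31.4 times in ZsGreen+ cells. These genes were named for lying in opposite directions, so a ratio that differs between the groups followed from that choice and is a description only. The other carriers of the family were near or at the floor: Fabp2 and Pmp2 had no count, Fabp7 and Fabp12 at most 4 counts in any library, and Fabp1, the liver carrier, stood at 0.493 to 1.87 CPM.

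**Figure D1:**
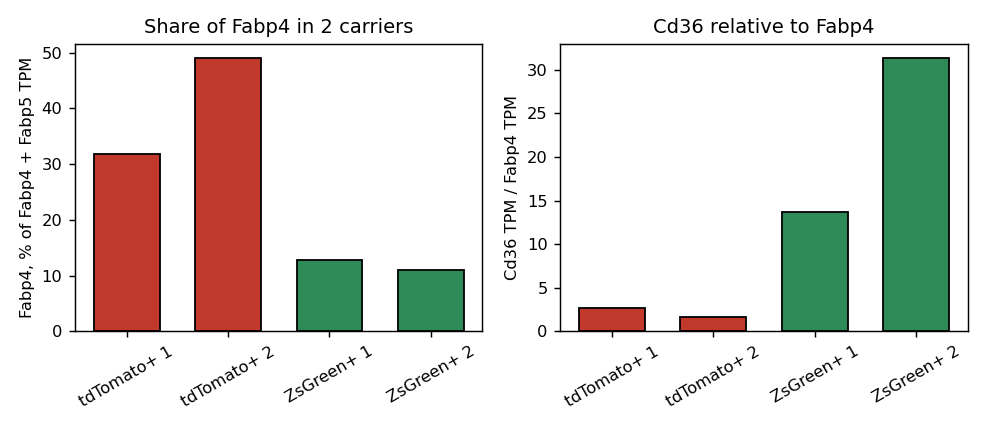
Left, Fabp4 as a percent of the summed TPM of Fabp4 and Fabp5 in each library (vertical axis from 0); right, the ratio of Cd36 TPM to Fabp4 TPM (vertical axis from 0). Bars are single libraries, red tdTomato+ and green ZsGreen+. The left bars stand at 31.9% and 49.1% against 12.8% and 11.1%, and the right bars at 2.72 and 1.64 against 13.7 and 31.4. Cd36 and Fabp4 were named for their opposite directions, so the right panel restates that choice.

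Fabp4 and Fabp5 lie in 1 cluster on chromosome 3 with Pmp2, Fabp9 and Fabp12. RefSeq places Fabp5 at 10012585 to 10016610 and Fabp4 at 10204342 to 10208616 (GRCm38). The deposited row for Fabp4 spans a longer stretch, 10196673 to 10208616, which takes in 611 bases of Fabp9. Fabp9, a carrier known from testis, had no deposited row of its own. How many Fabp4 counts came from the added stretch cannot be read from the table. The deposited rows for Fabp3 and Angptl4 join a main chromosome with an alternate scaffold and are printed here without a deposited span.

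Angptl4 differed more between libraries of one group than between groups. It measured 9.79 and 36.1 CPM in the tdTomato+ libraries, with 9.49 and 22.9 CPM in the ZsGreen+ pair. Both libraries numbered 2 were high and both numbered 1 low, so the groups overlapped, and the log2 fold change of 0.50 (SE 0.63) had an edgeR adjusted p of 0.905. Of 14 tested genes of lipoprotein lipolysis and uptake beside the members, edgeR called none, 5 stood higher and 4 lower in both tdTomato+ libraries than in both others, and the median log2 fold change was 0.01, against -0.01 over all 13177 genes tested. The groups did not overlap for 38.1% of all genes tested. Of the 14 genes 6 had an unadjusted p under 0.05, against 8.77% of all genes, and they lay in both directions. Gpihbp1, which holds lipoprotein lipase on the capillary surface, measured 243 and 313 against 709 and 729.7 CPM (log2 fold change -1.37, SE 0.21, edgeR adjusted p = 0.0796). The groups were also apart for the lipoprotein receptor Lrp1, at 51.3 and 32.2 against 24.1 and 10.1 CPM. Stab2, a scavenger receptor known from sinusoidal and lymphatic endothelium, stood at 2.48 and 0.42 against 5.38 and 8.98 CPM. For Lrp1 and Stab2 the adjusted p in edgeR was 0.419 and 0.421.

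No member passed edgeR's test over all genes, and 3 of the 9 tested, Fabp4, Cd36 and Scarb1, had an unadjusted p under 0.05. Over all 13177 genes the same test called 40, which is 0.304%, and 8.77% had an unadjusted p under 0.05. The groups did not overlap for 1 member that stood higher (Fabp4) and 2 that stood lower (Cd36 and Scarb1), 3 of 9, while 38.1% of all genes tested did not overlap, so that count is near the background. DESeq2 called 2 members, Fabp4 (adjusted p = 2.2e-07) and Cd36 (adjusted p = 0.00816), where it called 2.5% of all genes. Fabp4 also passed in edgeR without a filter on low counts (adjusted p = 0.00924), where 0.764% of genes were called, and in limma on log2(TPM + 1) (adjusted p = 0.0455), where 0.259% were. Leaving out tdTomato+ replicate 1 gave Fabp4 an edgeR adjusted p of 0.0471 with 0.126% of genes called. Leaving out ZsGreen+ replicate 1 gave 0.0243 for Fabp4 and 0.0184 for Cd36, with 2.21% of genes called. Over the 13 alternatives the adjusted p ran from 5.36e-17 to 0.316 for Fabp4 and from 0.0021 to 1 for Cd36, with both lowest values from the fit that takes the replicate number as a block. The log2 fold change of Fabp4 stayed above 0 in all 13, between 1.85 and 2.74, and that of Cd36 below 0 in all 13, between -1.29 and -0.64.

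**Figure D2:**
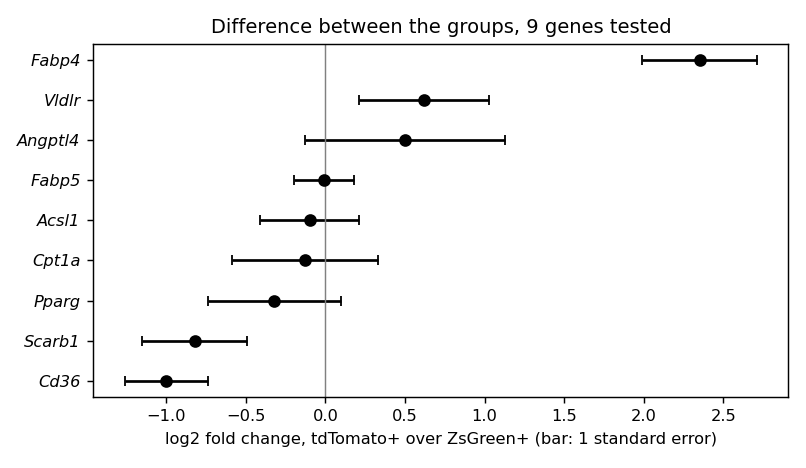
The log2 fold change, tdTomato+ over ZsGreen+ (horizontal axis), for the 9 members that passed the filter on low counts; points are edgeR estimates and bars 1 standard error. Fabp4 at 2.35 stands to the right of the others, and Scarb1 (-0.82) and Cd36 (-1.00) lie lowest.

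The genes for activation and oxidation showed no separation by group. Acsl1 (chromosome 8, 46471037 to 46536051) measured 14.5 and 13.3 CPM in the tdTomato+ libraries, with 11.4 and 18.4 CPM in the ZsGreen+ pair, so that the tdTomato+ libraries lay between the ZsGreen+ ones. Its log2 fold change of -0.10 (SE 0.31) had an edgeR adjusted p of 0.972. Cpt1a measured 57.8 and 112 CPM in the tdTomato+ libraries, with 54 and 133 CPM in the ZsGreen+ pair, and again the libraries numbered 2 were high in both groups. Its log2 fold change of -0.13 (SE 0.46) had an edgeR adjusted p of 0.975. Without ZsGreen+ replicate 2 the value was 0.66, and without tdTomato+ replicate 2 it was -0.68.

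Other enzymes of oxidation gave no call. Over all genes tested, 38.1% did not overlap between the groups and 8.77% had an unadjusted p under 0.05 in edgeR. Of 33 tested genes of mitochondrial and peroxisomal beta-oxidation, edgeR called none and none had an unadjusted p under 0.05; 3 stood higher and 6 lower in both tdTomato+ libraries, and the median log2 fold change was -0.04. The smallest p in this group was that of Eci1, an enoyl-CoA isomerase, at 44 and 39 against 65.6 and 45.1 CPM. Acacb, whose product malonyl-CoA restrains CPT1, stood at 18.9 and 16.4 against 14.8 and 10.8 CPM. Cpt2, the inner partner of the carnitine shuttle, stood at 30.6 and 34.9 against 41.2 and 38 CPM, and Etfb, an electron carrier subunit, at 84.3 and 118 against 112 and 137 CPM. Their edgeR adjusted p lay between 0.732 and 0.826.

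Other carriers and acyl-CoA synthetases gave no call either. The shares over all genes tested were 38.1% without overlap and 8.77% with an unadjusted edgeR p under 0.05. Of 22 genes on that list 20 had a row and 12 were tested; 4 stood higher and 1 lower in both tdTomato+ libraries, 2 had an unadjusted p under 0.05, and the median log2 fold change was 0.07. The transport proteins Slc27a3 and Slc27a1 stood slightly higher in tdTomato+ cells, at 13.5 and 15.7 against 9.93 and 8.05 CPM and at 9.57 and 9.56 against 7.15 and 5.31 CPM. Slc27a4, known as a main endothelial fatty acid transporter, stood at 47 and 49.2 against 60.2 and 53.6 CPM. Cav1, the caveolae protein, ranged from 974 to 1376 CPM and overlapped between the groups. For these 4 genes the adjusted p in edgeR ran from 0.54 to 0.848.

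Pparg itself did not separate the groups. It lies on chromosome 6, 115360879 to 115490404, and measured 15 and 9.35 CPM in the tdTomato+ libraries, with 20.6 and 9.91 CPM in the ZsGreen+ pair, with both libraries numbered 1 above both numbered 2. Its log2 fold change of -0.32 (SE 0.42) had an edgeR adjusted p of 0.909. Among all genes tested 38.1% did not overlap in either direction, and 8.77% had an unadjusted edgeR p under 0.05. Of 16 tested nuclear receptors, partners and factors of endothelial lipid uptake edgeR called none, 1 had an unadjusted p under 0.05, 4 stood higher and 3 lower in both tdTomato+ libraries, and the median was -0.01. Meox2 and Tcf15, which form a dimer known to drive Cd36 and Lpl in heart endothelium, were low in all libraries. Meox2 stood at 2.86 and 2.21 against 0.316 and 0.164 CPM, from 94 counts in the tdTomato+ group and 8 in the other. That is a ratio of 10.8 with an exact 95% interval of 5.24 to 25.6 that covers counting error only (edgeR adjusted p = 0.174). Only the tdTomato+ libraries carried Meox2 past the filter on low counts, so this ratio is a description and not evidence of a difference. Tcf15 stood at 2.04 and 3.26 against 1.08 and 0.986 CPM. Nr1h3, the oxysterol receptor LXR-alpha, stood at 16 and 19.3 against 13.2 and 7.45 CPM, and Rxra, the partner of PPARs, at 32.7 and 34.7 against 39.4 and 50.2 CPM. For the last 3 the adjusted p in edgeR ran from 0.573 to 0.671.

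PPAR targets beyond the members were not all of one direction, and their share without overlap was near that of all genes. For comparison, 38.1% of all genes tested did not overlap in either direction, and 8.77% had an unadjusted edgeR p under 0.05. Of all 13177 genes tested, 2620 stood higher and 2395 lower in both tdTomato+ libraries. Of 33 on the list 25 were tested, edgeR called none, 4 had an unadjusted p under 0.05, 8 stood higher and 2 lower in both tdTomato+ libraries, and the median log2 fold change was 0.09. Olr1, the scavenger receptor LOX-1, measured 17.7 and 12.9 against 3.61 and 1.97 CPM (log2 fold change 2.46, SE 0.41, edgeR adjusted p = 0.101). Ucp3, a mitochondrial carrier known from muscle, stood at 3.3 and 2.15 CPM against 0.19 and 0.164 CPM. Its 101 counts against 6 give a ratio of 15.4 with an exact 95% interval of 6.84 to 43 for counting error only (edgeR adjusted p = 0.129). Ucp3 passed the filter on low counts only through the tdTomato+ libraries and was named for its small p. Its ratio is therefore a description and not evidence of a difference. Cidec, a lipid droplet protein, stood at 5.34 and 6.88 against 3.48 and 1.81 CPM, and Cyp4b1, a fatty acid hydroxylase abundant in lung, at 351 and 190.4 against 690.5 and 325 CPM, where the groups overlapped. Their edgeR adjusted p values were 0.524 and 0.619.

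Storage genes and upstream signals gave no call in edgeR. As a background for both lists, 38.1% of all genes tested did not overlap and 8.77% had an unadjusted edgeR p under 0.05. Of 24 tested genes of triglyceride storage, 6 stood higher and 3 lower in both tdTomato+ libraries and 2 had an unadjusted p under 0.05, with a median of 0.09. Lpin3, a phosphatidate phosphatase, stood at 20.2 and 13.6 against 9.36 and 7.07 CPM, and Dgat2, which makes triglyceride, at 3.69 and 4.73 against 2.4 and 0.822 CPM. Mgll, the lipase of monoglycerides, stood at 270.1 and 377 against 491 and 423 CPM. Of 20 tested genes reported to act on endothelial fatty acid uptake, 3 stood higher and 6 lower and 2 had an unadjusted p under 0.05, with a median of -0.12. The peptide gene Apln stood at 122 and 127 against 169 and 193 CPM, and the Notch effector Hey1 at 97.1 and 85.8 against 166 and 110.5 CPM. Foxm1 and Foxo1, forkhead factors, stood at 15.5 and 22.5 against 11.3 and 12.7 CPM and at 190.5 and 191 against 152 and 137 CPM. For these 7 genes the adjusted p in edgeR ran from 0.367 to 0.613.

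**Figure D3:**
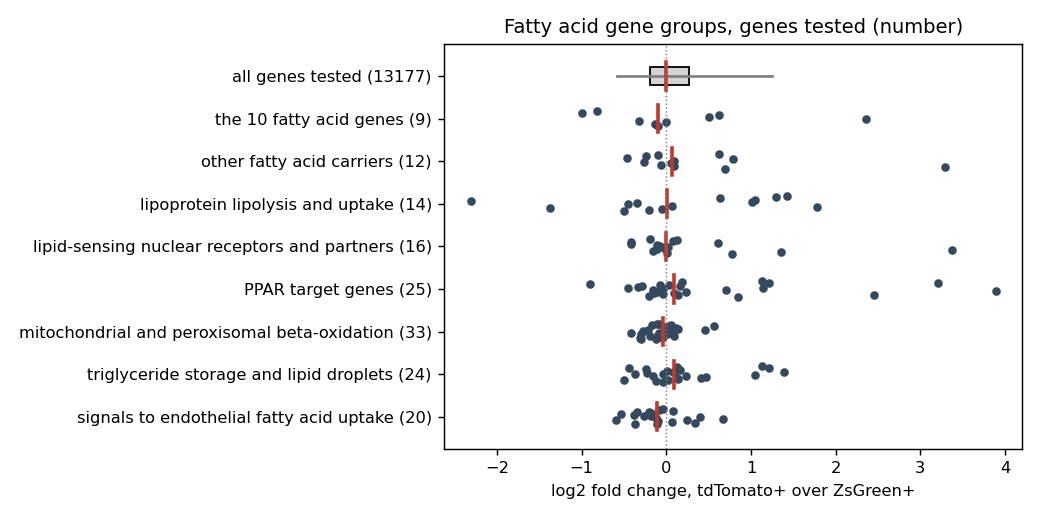
The log2 fold change, tdTomato+ over ZsGreen+ (horizontal axis), of each tested gene (points) in the 9 members tested and in 7 other gene groups, with the number tested in brackets and the median as a red bar. The top row shows all 13177 genes as a box from the 25th to the 75th percentile with a line from the 5th to the 95th; the medians of the groups lie between -0.12 and 0.09, with Fabp4, Olr1, Meox2 and Ucp3 among the points far to the right.

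On the TPM scale the membrane receptors Cd36 and Scarb1 were the most abundant members. In ZsGreen+ cells Cd36 (469 and 875 TPM) and Scarb1 (831 and 551 TPM) overlapped each other and stood above Fabp5 (234 and 222 TPM), which in turn stood above Fabp4 (34.3 and 27.8 TPM) and Cpt1a (17.4 and 50.5 TPM), themselves overlapping. In tdTomato+ cells Cd36 (350.4 and 378 TPM) and Scarb1 (548 and 345 TPM) again overlapped each other, followed by Fabp5 (274 and 238 TPM) and Fabp4 (129 and 229.6 TPM). Fabp4 thus stood clear of Cpt1a (22.9 and 42.5 TPM) in tdTomato+ cells and not in ZsGreen+ cells. Pparg (8.35 to 15.4 TPM) and Angptl4 (7.25 to 32.5 TPM) overlapped in the middle, Acsl1 (4.09 to 7.87 TPM) lay near their lower edge, and Vldlr (0.91 to 2.14 TPM) and Fabp3 (0 to 2.23 TPM) lay lowest and overlapped.

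**Figure D4:**
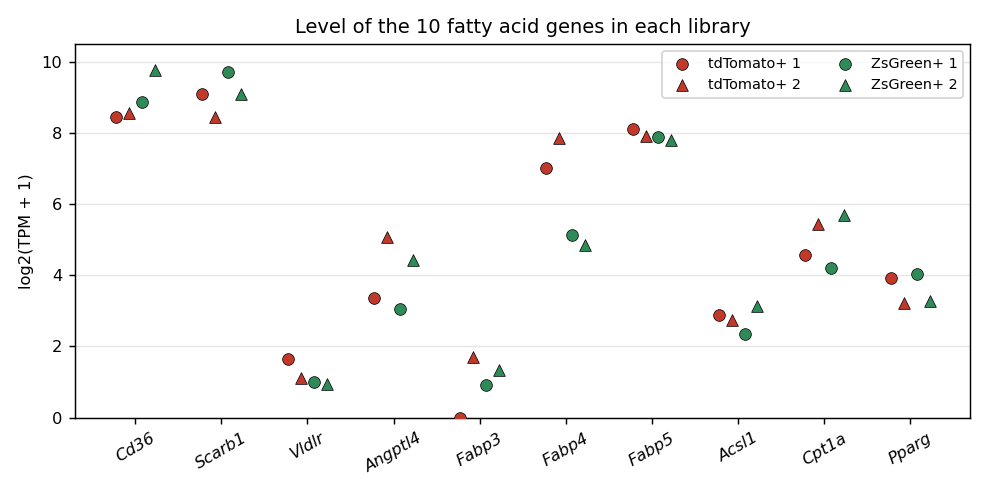
Level of each member as log2(TPM + 1) (vertical axis) in each library; red marks tdTomato+ and green ZsGreen+, circles replicate 1 and triangles replicate 2. Fabp4 separates by colour, with 129 and 229.6 TPM against 34.3 and 27.8 TPM, while Angptl4 and Cpt1a separate by symbol.

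Several members followed the replicate number in place of the group, which is not particular to them. Across all 13177 genes tested, the deviations of same-numbered libraries from their group means correlated at 0.455. The share of all genes with such an order was not counted. Cpt1a and Angptl4 were higher in both libraries numbered 2, and Pparg in both numbered 1. Within each group Scarb1, Fabp5 and Vldlr were also higher in replicate 1, and Cd36 was higher in replicate 2. The sum of the 17 macrophage markers was also higher in replicate 1 within each group. It was 5857 and 2786 CPM in tdTomato+ replicates 1 and 2 and 3279.6 and 696 CPM in ZsGreen+ replicates 1 and 2. Lyz2 and Chil3 made up most of the sum in every library. Marco, on the same list, was higher in replicate 2 within each group, at 11.3 and 55.2 CPM in tdTomato+ and 5 and 12.7 CPM in ZsGreen+. The part of macrophage RNA in the values of Pparg and Scarb1 was not tested.

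**Figure D5:**
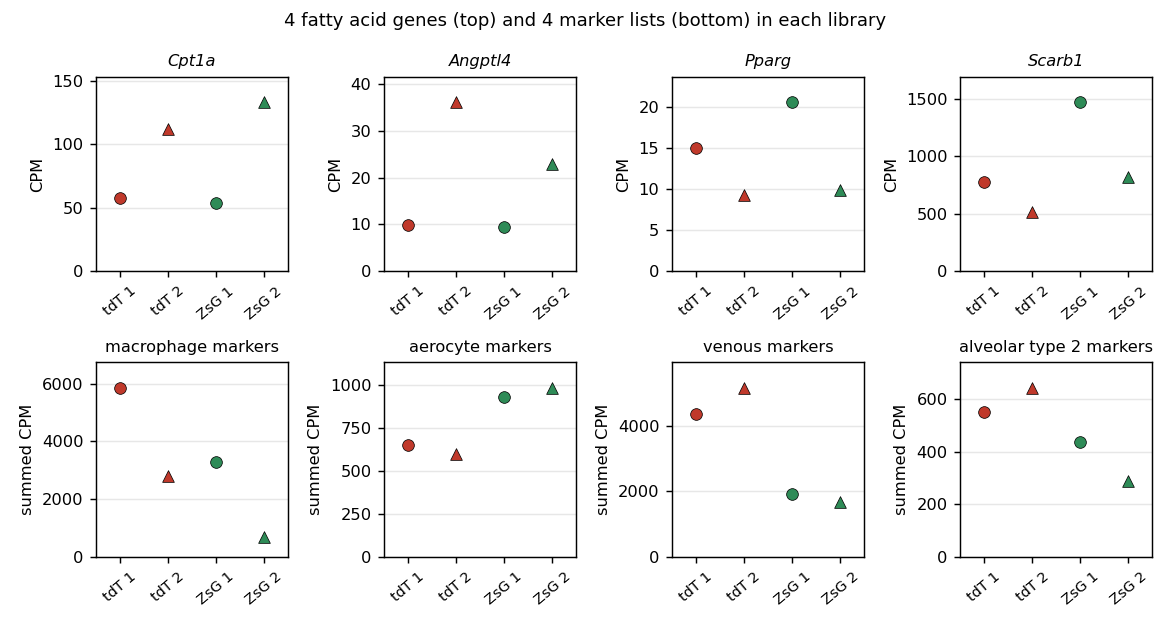
CPM of Cpt1a, Angptl4, Pparg and Scarb1 (top) and summed CPM of 4 marker lists (bottom) in each library, vertical axes from 0; red marks tdTomato+ and green ZsGreen+, circles replicate 1 and triangles replicate 2. Cpt1a and Angptl4 are high in both triangles, whereas venous markers are high in both red points (4340 and 5151 against 1901 and 1664 CPM) and aerocyte markers low (649 and 598 against 929 and 982 CPM).

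Markers of other cells and of endothelial subtypes stood beside these values. Of the 17 macrophage markers, 6 stood higher in both tdTomato+ libraries and none lower, none was called, and Krt79, an alveolar macrophage marker picked with its value known, read 10.6 and 7.04 against 1.96 and 1.7 CPM. Marco, another alveolar macrophage marker picked in the same way, read 11.3 and 55.2 against 5 and 12.7 CPM, and its groups overlapped. Marco was highest, as Fabp4 was, in tdTomato+ replicate 2. Krt79, Lyz2, Chil3, Siglecf and the sum of the 17 markers were instead highest in tdTomato+ replicate 1. The part of macrophage RNA in the Fabp4 values was not tested. Adipocytes also express Fabp4; of their 10 markers 9 had a row, summing to 5.56 and 7.35 CPM against 3.92 and 2.14 CPM, mostly Cidec. Adipoq, their defining hormone, had no count in any library, which allows up to 0.158 to 0.19 CPM, and Plin1 stood at or under 0.158 CPM. Type 2 cell markers, from a cell known to express Fabp5, summed to 552 and 643 against 436 and 289 CPM, with 7 of 10 higher and 1 lower in both tdTomato+ libraries. Fibroblast markers summed to 274 and 486 against 139 and 157 CPM, with 6 of 12 higher and none lower, where 38.1% of all genes did not overlap in either direction. None of these was called, and their part in the results was not tested. Cardiomyocyte markers, from a cell rich in Fabp3, summed to 16.3 to 23.1 CPM in all libraries, mural cell markers to 29.9 to 47.3 CPM and platelet and erythroid markers to 39.8 to 64.2 CPM.

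Among subtype markers edgeR called 10 genes. Over all genes tested 38.1% did not overlap between the groups and 0.304% were called, in either direction. Of 11 venous markers 8 stood higher in both tdTomato+ libraries and edgeR called 3 of them, Vcam1, Cpe and Car8 (log2 fold changes 2.00, 1.77 and 1.65). Of 12 arterial markers 6 stood higher and 2 lower, with Mgp (2.22) and Fbln2 (1.81) called. Of 10 aerocyte markers 9 stood lower, with Prx called (-1.74), and of 9 lymphatic markers tested 7 stood lower and 1 higher, with Thy1, Fxyd6, Mmrn1 and Reln called lower (-2.39 to -3.20). The summed lymphatic markers overlapped between the groups, at 923 and 1200 against 1119 and 1452 CPM. General capillary markers, a list that holds Gpihbp1 and Lpl, summed to 8406 and 8561 against 9777 and 8597 CPM. For these 10 called markers edgeR gave adjusted p values from 0.0304 to 0.0465. These lists were written with earlier results of these data known. What part a different mix of endothelial subtypes has in the levels of Cd36, Gpihbp1 and Fabp4 was not tested.

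The genes whose pattern over the 4 libraries lay closest to Fabp4 were Sfrp1, a secreted Wnt modulator, Afap1l2, an actin-filament adaptor, and Rbp7, a retinol-binding protein of the same lipid-carrier fold. Likeness is the distance between centred log2 CPM values, ranked over 10048 other genes with at least 5 CPM on average, and was 0.19, 0.25 and 0.32. Of these 3 only Afap1l2 passed the test (33.4 and 54.9 against 9.74 and 8.05 CPM, edgeR adjusted p = 0.0465). Sfrp1 stood at 15.1 and 29.9 CPM in tdTomato+ cells against 4.56 and 3.01 CPM, and Rbp7 at 14 and 23.4 against 4.05 and 3.62 CPM. Closest to Cd36 were Akap12, a kinase scaffold, Mturn, a neural differentiation gene, and Cp, ceruloplasmin, at distances of 0.093, 0.13 and 0.15. Akap12 stood at 211 and 224 against 324 and 504 CPM. With 4 libraries many genes share a pattern, so this names neighbours only.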

How the data were processed

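Lung endothelial cell RNA was amplified before library making, per the labels' protocols; without molecular identifiers in those protocols, intervals cover counting error only. The authors deposited estimated counts per gene, of which 16.2% to 17.9% are not whole, and TPM values, each column of which sums to between 999999 and 1000001. RSEM 1.3.1 and DESeq2 1.4.5 are named in the submitters' processing notes with mm10 and GRCm38, without their roles; the sources used here name no aligner and no use of strand. A further 8 columns of FPKM and normalized counts were not used here.

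Counts were rounded and tested with edgeR 4.0.16 under R 4.3.3: TMM factors (0.927 to 1.045), filterByExpr with a minimum count of 10 (13177 genes left), two-sided quasi-likelihood F-test, Benjamini-Hochberg adjustment over all genes, called at 0.05. Each SE is the size of the log2 fold change divided by the root of its F statistic, and the common BCV came to 26.1%. The test was first tested on simulated data. With 2 against 2 libraries no single-gene permutation test can reach 0.05, so none is given. DESeq2 1.42.0 and limma 3.58.1 were alternatives.

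The members, the lists and the rules were chosen with earlier results of these data known. Named are the members, then from each fatty acid list up to 4 genes with the smallest p and at least 1 CPM on average, called genes of the marker lists, and the 3 genes nearest in pattern to Fabp4 and Cd36. A gene that this rule names is not reported here. Also named, with values already known, are further Fabp genes, Pecam1, Cdh5, Acta2, Krt79, Marco, Lyz2, Chil3, Siglecf, Adipoq and Plin1. RefSeq matched 17862 of 17915 identifiers, and gene spans and promoters are RefSeq's for GRCm38.p6; member spans are printed where the deposited span is the same, with Fabp4 as the stated exception.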

Additional observations from a re-analysis of the deposited data

How the results depend on the processing

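edgeR called 40 of all genes and no member. The number was 330 in DESeq2 and 128 without a filter on low counts, 22 in limma on log2(TPM + 0.1), and 4 (without tdTomato+ replicate 2) to 304 (without ZsGreen+ replicate 1) when single libraries were left out, with 0 to 2 members called there. DESeq2 called 2 members, edgeR without a filter 1 (Fabp4) and limma on log2(TPM + 1) 1 (Fabp4); RLE and upper quartile factors, limma-voom, a 1 CPM filter and log2(TPM + 0.1) called none. With the replicate block 934 genes and 3 members were called, Fabp4 (2.31, adjusted p = 5.36e-17), Cd36 (-0.97, adjusted p = 0.0021) and Scarb1 (-0.79, adjusted p = 0.0187); the labels do not say that a number marks a shared mouse, so they are not treated as pairs and whether they share one is not known; the correlation of same-numbered libraries' deviations across genes was 0.455. Fabp4, Cd36, Scarb1 and Vldlr kept their direction in all 13 alternatives; with single libraries left out they ran from 1.85 to 2.74, -1.29 to -0.64, -1.18 to -0.34 and 0.14 to 1.01. Fabp5, at -0.01, took the other sign with upper quartile factors (0.04), limma-voom, the 1 CPM filter and the block (0.00 each) and on both TPM scales (0.16 each). Acsl1 (0.07 and 0.09) and Cpt1a (0.07 each) turned on log2(TPM + 1) and log2(TPM + 0.1); there the median of all genes was 0.12 and 0.134, against -0.01 in edgeR, and these values lie under it. With single libraries left out Fabp5 ran from -0.17 to 0.17, Pparg from -0.76 to 0.30, Angptl4 from -0.71 to 1.27, Acsl1 from -0.40 to 0.28 and Cpt1a from -0.68 to 0.66. The sign turned without tdTomato+ replicate 2 for Fabp5, Pparg and Angptl4, without ZsGreen+ replicate 1 for Fabp5 and Pparg, without ZsGreen+ replicate 2 for Acsl1 and Cpt1a, and without tdTomato+ replicate 1 for Cpt1a. The cause was not tested. Fabp3 passed the filters of 6 alternatives and was called in none of them.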
